A study of Mus musculus with 8 samples.

Results

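The genes described here are the 4649 mouse genes, of 25450 in the table, whose annotated start and end lie 50 kb or more apart. Coordinates came with 18185 of the genes; the other 7265 could not be placed by span, and 576 of those have a RefSeq locus of 50 kb or more. The samples were C57BL/6 mouse pancreatic ductal adenocarcinoma (PDAC) cells, labelled either Setd2 knockout (KO) or wild type (WT), in which CUT&Tag, an antibody-directed tagging of chromatin, had been used to measure histone marks. The design notes describe established lines and every library is labelled as cultured tumour cells, but the title of the series places the cells in a sort from orthotopic tumours; which of the 2 applies to each library cannot be told apart. No driver mutation, clone or passage number was given in the sources used here, and whether KO and WT derive from 1 parental line or animal was not stated there.

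H3K36me3 over gene bodies and H3K27me3 at promoters each had 1 KO and 1 WT library, so 4 libraries carry the comparison and no library is shared between the marks. The other 4 libraries, 2 KO/WT pairs of promoter H3K27ac of which 1 is marked vitro, served as a further readout. With 1 library per group no difference could be set against a spread between replicates, and no test was run. Every statement below describes these libraries. The deposited values are signals without fragment counts, so the depth behind them is unknown.

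SETD2 is the enzyme that places the third methyl group on lysine 36 of histone H3, and it travels with elongating RNA polymerase II, so that H3K36me3 lies over the bodies of transcribed genes. H3K27me3, placed by Polycomb repressive complex PRC2, marks promoters of silent developmental genes. In biochemical work, methylation of lysine 36 hinders PRC2 on the same histone tail. The question put to the table was therefore whether, in long genes, less H3K36me3 over the body went with more H3K27me3 at the promoter.

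Values are given as signal per kilobase, the deposited value times 1000; these values look like mean coverage per base, but their scale and scaling factor were not stated in the sources used here, nor was the promoter window. The floor of a mark was the 25th percentile of its positive values over all genes, 2.63 per kb for H3K36me3 and 1.53 for H3K27me3. It was added to KO and WT before the log2 ratio of KO over WT was taken, which understates the difference of low genes. A gene counted as measured if its mean over KO and WT reached the floor. In H3K36me3, 3744 of the 4649 long genes passed; in H3K27me3, 3786 did. Both marks were measured in 3092, 1 mark alone in 1346 and neither in 211. "Lower" and "higher" below mean at least 1.5-fold in KO on this floor-added scale.

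In these libraries, loss of H3K36me3 did not go with gain of H3K27me3 across the long genes. The Spearman correlation of the log2 ratios over 3092 genes was 0.0121, and Pearson's r was 0.0111. These points are genes of the same 4 libraries, share the floor and the scaling, and are not independent replicates. KO and WT levels of H3K36me3 correlated at only 0.179 over these genes, against 0.782 for H3K27me3. How much of the H3K36me3 ratio would repeat is unknown, so a correlation near 0 may also hide a relation. Within a genotype, levels of H3K36me3 and H3K27me3 correlated at 0.0568 in WT and 0.088 in KO. H3K27me3 was higher in 146 of the 442 genes with lower H3K36me3 (33.0%), in 32.1% of the 2331 genes whose H3K36me3 stayed within 1.5-fold, and in 32.3% of the 319 genes with higher H3K36me3. The 3 shares lay within 1 percentage point of each other.

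The reverse reading gave the same picture. H3K36me3 was lower in 14.6% of the 998 genes with higher H3K27me3, in 14.0% of the 1668 genes whose H3K27me3 stayed within 1.5-fold, and in 14.8% of the 426 genes with lower H3K27me3. The median log2 ratio of H3K36me3 in these classes was -0.06, -0.05 and -0.08. Lower H3K27me3 was found in 14.3% of the genes with lower H3K36me3 and in 14.4% of those with higher H3K36me3.

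**Figure D1:**
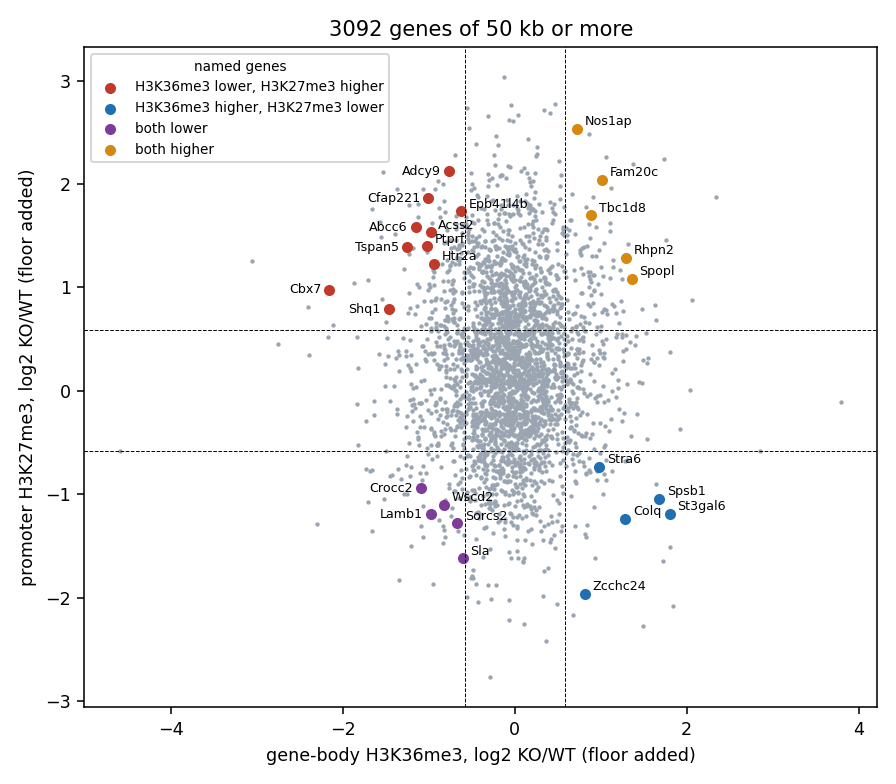
Each grey point is one of 3092 long genes, with the log2 KO/WT ratio of gene-body H3K36me3 on the horizontal axis, that of promoter H3K27me3 on the vertical axis, and dashed lines at 1.5-fold; coloured points are the named genes. The cloud is narrower along the H3K36me3 axis (SD 0.56) than along the H3K27me3 axis (SD 0.80) and shows no slope.

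Each mark by itself behaved differently. The median H3K36me3 over the 3092 bodies was 4.34 per kb in KO and 4.54 in WT, with means of 4.79 and 5.19, and the median log2 ratio was -0.06. H3K36me3 was lower in 442 long genes (14.3%), where 30.3% of all genes measured in that mark were lower, and higher in 319 (10.3%), where 27.1% of all genes were higher. The long genes thus held fewer differences in both directions than the table as a whole. Since the authors' scaling between libraries is not known, a uniform difference between KO and WT cannot be told apart from it, and each ratio is relative to that scaling.

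Promoter H3K27me3 had a median of 7.15 per kb in KO and 5.97 in WT, with means of 16.0 and 12.9, and a median log2 ratio of 0.23. It was higher in 998 long genes (32.3%), against 30.1% of all genes measured, and lower in 426 (13.8%), against 16.8%. At 2-fold, 536 were higher and 161 lower, against 15.4% and 6.91% of all genes measured. Of the promoters that differed 70.1% were higher; with all ratios centred on their median that share was 56.2% (774 higher, 604 lower), with quantile normalization 57.4%, with the trend on level removed 58.2%, and with each chromosome centred on its own median 53.0%. For H3K36me3, centring turned 319 higher and 442 lower into 391 and 362.

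The 4 combinations of both marks were all populated. Lower H3K36me3 with higher H3K27me3 was seen in 146 genes, 4.72% of the long genes measured, against 9.26% of all genes measured in both marks. Higher H3K36me3 with lower H3K27me3 was seen in 46 genes (1.49%, against 4.4%). Both marks were lower in 63 genes (2.04%, against 4.99%) and higher in 103 (3.33%, against 8.43%). All 4 shares were below those of the whole table, in which the H3K36me3 ratios of genes under 50 kb had an SD of 1.65 against 0.56 here.

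Single cases of the opposed pattern were taken from genes that exceeded the long genes' median signal in each mark and were above 0 in all 4 libraries. The lowest H3K36me3 ratio of these belonged to Cbx7, a chromodomain subunit of Polycomb complex PRC1 that reads H3K27me3. Its body on chromosome 15 (mm10, 79915807 to 79971119, minus strand, 55.3 kb) carried 3.06 per kb in KO and 22.8 in WT, and its promoter carried H3K27me3 of 12.1 in KO and 5.37 in WT. That is a 4.46-fold lower H3K36me3 and a 1.97-fold higher H3K27me3 with the floor added, while vitro H3K27ac was 29.6 and 29.9.

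Adcy9, which encodes an adenylyl cyclase, had H3K36me3 of 4.08 per kb in KO and 8.78 in WT. H3K27me3 at its promoter reached 14.7 in KO against 2.19 in WT, the widest H3K27me3 gap of the 10 opposed genes named here (4.36-fold with the floor added). Cfap221, which encodes a protein of motile cilia, had H3K36me3 of 2.97 and 8.68 and H3K27me3 of 13.6 and 2.63 in KO and WT. Tspan5, which encodes a tetraspanin that partners the protease ADAM10, had H3K36me3 of 2.17 and 8.84 and H3K27me3 of 24.7 and 8.5. Its KO body value lay below the floor.

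Among the genes of the opposite pattern, St3gal6, encoding a sialyltransferase, had H3K36me3 of 9.49 per kb in KO and 0.847 in WT, and H3K27me3 of 4.45 and 12.2. The WT value of its body lay below the floor.

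The promoters of Adcy9, Cfap221 and Tspan5 are printed with that of St3gal6 because these 300 bases, from 250 before to 50 after the transcription start in RefSeq (GRCm38.p6, the assembly behind mm10), surround the start of each gene, and because they differ widely in CG dinucleotides, the context in which PRC2 is best known to bind. Capitals mark each CG, a motif that reads the same on both strands. The windows are chr16:4420449-4420748 (minus strand, 42 CG), chr1:119997183-119997482 (minus strand, 18 CG), chr3:138741958-138742257 (plus strand, 43 CG) and chr16:58524204-58524503 (minus strand, 3 CG), each read 5′ to 3′ on the gene's strand.
Adcy9: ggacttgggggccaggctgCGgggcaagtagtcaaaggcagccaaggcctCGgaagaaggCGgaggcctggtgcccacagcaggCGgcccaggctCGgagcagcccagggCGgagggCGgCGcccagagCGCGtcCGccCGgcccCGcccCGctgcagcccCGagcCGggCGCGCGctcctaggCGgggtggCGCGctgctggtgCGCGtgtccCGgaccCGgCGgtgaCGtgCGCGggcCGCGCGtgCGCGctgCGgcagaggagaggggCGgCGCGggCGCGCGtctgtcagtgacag
Cfap221: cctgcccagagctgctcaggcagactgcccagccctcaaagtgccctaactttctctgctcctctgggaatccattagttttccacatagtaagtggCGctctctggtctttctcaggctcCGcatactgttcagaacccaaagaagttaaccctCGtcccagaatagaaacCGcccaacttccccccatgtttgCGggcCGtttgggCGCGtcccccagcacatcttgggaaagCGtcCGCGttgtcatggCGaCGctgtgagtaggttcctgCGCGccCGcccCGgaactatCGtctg
Tspan5: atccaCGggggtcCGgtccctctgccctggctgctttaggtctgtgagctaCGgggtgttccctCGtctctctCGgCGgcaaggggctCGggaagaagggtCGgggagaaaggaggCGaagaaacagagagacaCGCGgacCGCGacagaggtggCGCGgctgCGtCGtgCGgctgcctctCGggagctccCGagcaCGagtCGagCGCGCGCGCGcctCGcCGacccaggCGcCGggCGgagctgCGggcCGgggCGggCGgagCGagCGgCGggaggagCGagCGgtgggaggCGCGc
St3gal6: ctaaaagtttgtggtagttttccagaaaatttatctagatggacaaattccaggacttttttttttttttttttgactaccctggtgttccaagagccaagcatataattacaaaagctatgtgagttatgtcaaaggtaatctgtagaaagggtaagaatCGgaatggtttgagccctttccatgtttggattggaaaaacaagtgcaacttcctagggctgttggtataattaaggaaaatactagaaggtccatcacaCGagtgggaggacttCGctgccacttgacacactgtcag

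Of all 32851 RefSeq promoters of this length in the table used, 94.6% held at least 1 CG, with a median of 7 and quartiles of 3 and 20. Adcy9 and Tspan5 are therefore CG-rich, Cfap221 lies just below the upper quartile and St3gal6 at the lower one. A count of CG is a description of the sequence, and these 4 genes do not stand for the others.

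The remaining opposed genes covered unrelated functions. Ptprf, encoding the receptor-type tyrosine phosphatase LAR, had H3K36me3 of 8.84 per kb in KO and 20.7 in WT, and H3K27me3 of 18.5 and 6.08. Acss2, encoding the enzyme that makes acetyl-CoA from acetate, had 2.18 and 6.87 in H3K36me3 and 33.2 and 10.5 in H3K27me3, while its H3K27ac was 46.7 in KO and 23.3 in WT (19.2 and 23.9 in the vitro pair). Abcc6, encoding an ABC transporter, had 2.25 and 8.24 in H3K36me3, 12.1 and 3.01 in H3K27me3, and vitro H3K27ac of 2.52 in KO and 9.54 in WT. The KO H3K36me3 of Acss2 and of Abcc6 lay below the floor. In log2, vitro H3K27ac was lower in KO at Ptprf, Acss2 and Abcc6, by -0.61, -0.29 and -1.32. The other pair gave 0.59, 0.91 and -0.23. At Htr2a and Shq1, described next, vitro H3K27ac was higher in KO, by 0.48 and 0.31.

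Htr2a, encoding a serotonin receptor, carried the most H3K27me3 of the 10, with 55.6 per kb in KO and 22.9 in WT, beside H3K36me3 of 2.76 and 7.75. Epb41l4b, which encodes a FERM-domain protein, had H3K27me3 of 50.8 and 14.2 and H3K36me3 of 3.97 and 7.59. Shq1, encoding an assembly factor of H/ACA ribonucleoproteins, had H3K27me3 of 8.9 and 4.5 and H3K36me3 of 1.76 and 9.54. The KO body value of Shq1 lay below the floor. Of the 146 opposed genes, 71 were also opposed under each of 5 other settings of pseudocount and scaling; 8 of the 10 named ones were, the exceptions being Epb41l4b and Shq1. With a pseudocount 5 times larger, the sixth setting tried, 5 of the 146 remained opposed, Cbx7 and Ptprf among them.

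The opposite pattern had members too, though 11 genes passed the naming rule for it against 43 for the opposed pattern. How many stay in it under other settings was not counted. Zcchc24 had H3K36me3 of 8.11 per kb in KO and 3.47 in WT, H3K27me3 of 11.7 and 49.9, and vitro H3K27ac of 25.8 and 4.37. Spsb1, encoding a SOCS-box adaptor of a ubiquitin ligase, had H3K36me3 of 15.9 and 3.17 and H3K27me3 of 23.6 and 50.4. Colq, which encodes the collagen tail of acetylcholinesterase, had H3K36me3 of 9.34 and 2.29 and H3K27me3 of 9.89 and 25.4. Stra6, encoding the cell-surface receptor of retinol-binding protein, had H3K36me3 of 7.52 and 2.5 and H3K27me3 of 10 and 17.7. The WT H3K36me3 of Colq and of Stra6 lay below the floor. In Zcchc24, Spsb1, Colq and Stra6 vitro H3K27ac was higher in KO than in WT, by 0.16 to 2.10 in log2.

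In other genes the marks moved together. Lamb1, encoding the laminin beta 1 chain of basement membranes, had H3K36me3 of 3.34 per kb in KO and 9.11 in WT and H3K27me3 of 7.59 and 19.3, while its promoter H3K27ac was 25.4 and 7.87. Crocc2, related to the ciliary rootlet gene Crocc, had H3K36me3 of 6.33 and 16.5, H3K27me3 of 8.25 and 17.3, and H3K27ac of 72.5 and 10.6. Both promoters thus had more acetylation in KO beside less body H3K36me3. Sla, Sorcs2 and Wscd2, the other genes named with both marks lower, had H3K36me3 log2 ratios of -0.61, -0.68 and -0.83 and H3K27me3 log2 ratios of -1.62, -1.28 and -1.11.

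Of the genes with both marks higher, Nos1ap, encoding an adaptor of neuronal nitric oxide synthase, had H3K27me3 of 18.5 per kb in KO and 1.92 in WT beside H3K36me3 of 8.16 and 3.92. Fam20c, which encodes the kinase of secreted proteins, had H3K27me3 of 27.3 and 5.48 beside H3K36me3 of 12.3 and 4.81. Tbc1d8, Rhpn2 and Spopl had H3K36me3 log2 ratios of 0.89, 1.29 and 1.36 and H3K27me3 log2 ratios of 1.70, 1.29 and 1.09. Among all genes with higher H3K36me3, the share with higher H3K27me3 was the 32.3% given above, close to that of the genes with lower H3K36me3.

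**Figure D2:**
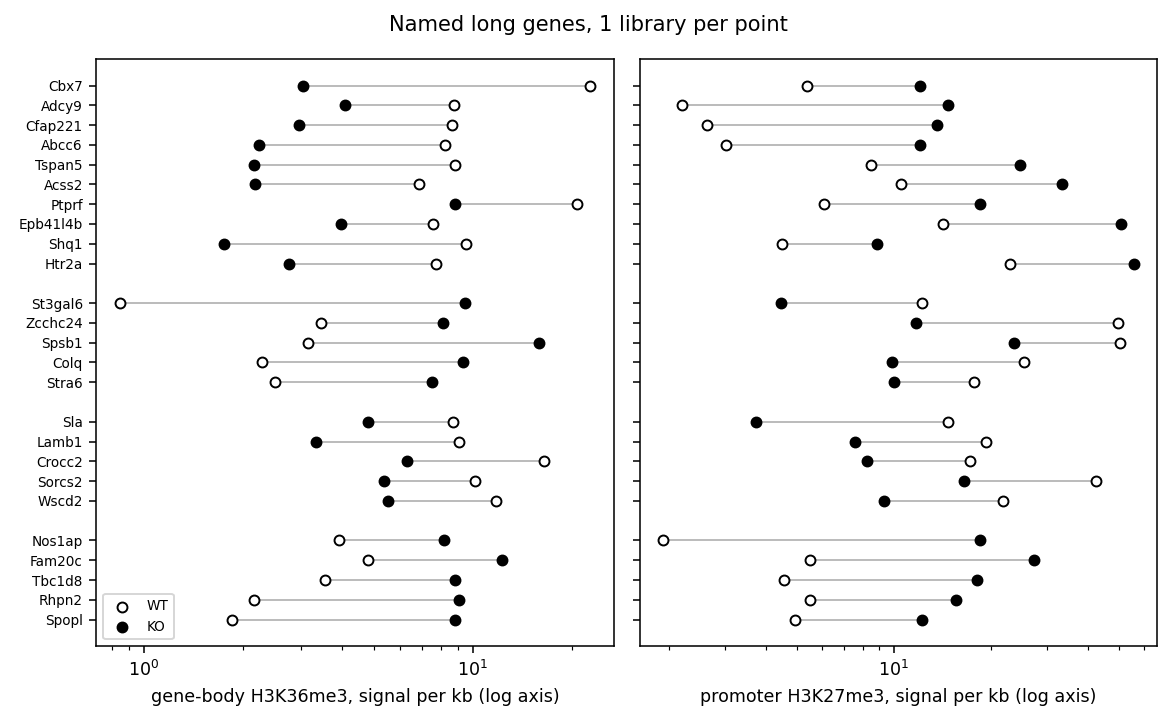
Signal per kilobase on log axes for the 25 named genes, gene-body H3K36me3 at left and promoter H3K27me3 at right, with an open circle for the WT library and a filled one for the KO library. From top to bottom the blocks are H3K36me3 lower with H3K27me3 higher, the opposite pattern, both lower and both higher; Cbx7 has the widest H3K36me3 gap of the first block (3.06 in KO, 22.8 in WT).

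Genes at the extremes of 1 mark mostly had the other mark within 1.5-fold, as did most long genes. Of all 3092, H3K36me3 was within 1.5-fold in 2331 and H3K27me3 in 1668. After Cbx7, the lowest H3K36me3 ratios under the same signal rule were those of Rasgef1b, Slc2a3, Radil and Chd5. Slc2a3, encoding the glucose transporter GLUT3, had H3K36me3 of 1.61 per kb in KO and 10.5 in WT, with H3K27me3 of 41.4 and 44.6. Chd5, encoding a chromatin remodeller, had 1.97 and 10.3 in H3K36me3 and 63.9 and 44.5 in H3K27me3. H3K27me3 stayed within 1.5-fold in Rasgef1b and Radil too. KO H3K36me3 lay below the floor in Rasgef1b, Slc2a3, Radil and Chd5.

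Under the same signal rule the highest H3K27me3 ratio was that of Rassf5, a Ras-binding adaptor gene, with promoter H3K27me3 of 52.8 per kb in KO and 6.47 in WT and body H3K36me3 of 5.8 and 6.06. Plcb4, encoding a phospholipase C, followed with 18 and 1.43, a WT value below the floor. Stk39, encoding a kinase upstream of ion cotransporters, had 25.5 and 3.45. Brwd1, a bromodomain gene, had H3K27me3 of 15.0 and 1.86 although its promoter H3K27ac was 51.8 and 31.5. In these 4 genes H3K36me3 stayed within 1.5-fold, with log2 ratios from -0.24 to 0.34, whereas Nos1ap, the remaining gene of the top 5 and described above, had 1.65-fold higher H3K36me3.

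The size of the H3K36me3 difference made no graded change in H3K27me3. In quintiles (5 groups of equal size) of the long genes ordered from the lowest to the highest H3K36me3 ratio, the median log2 ratio of H3K27me3 was 0.26, 0.21, 0.25, 0.18 and 0.26. The share with higher H3K27me3 was 32.5, 31.1, 33.2, 32.4 and 32.3%. In the 138 genes with H3K36me3 at least 2-fold lower (20.5% of all genes measured were), 28.3% had higher H3K27me3 and 21.0% had lower. In the 99 genes at least 2-fold higher (20.1% of all genes were), 35.4% had higher H3K27me3 and 15.2% lower.

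**Figure D3:**
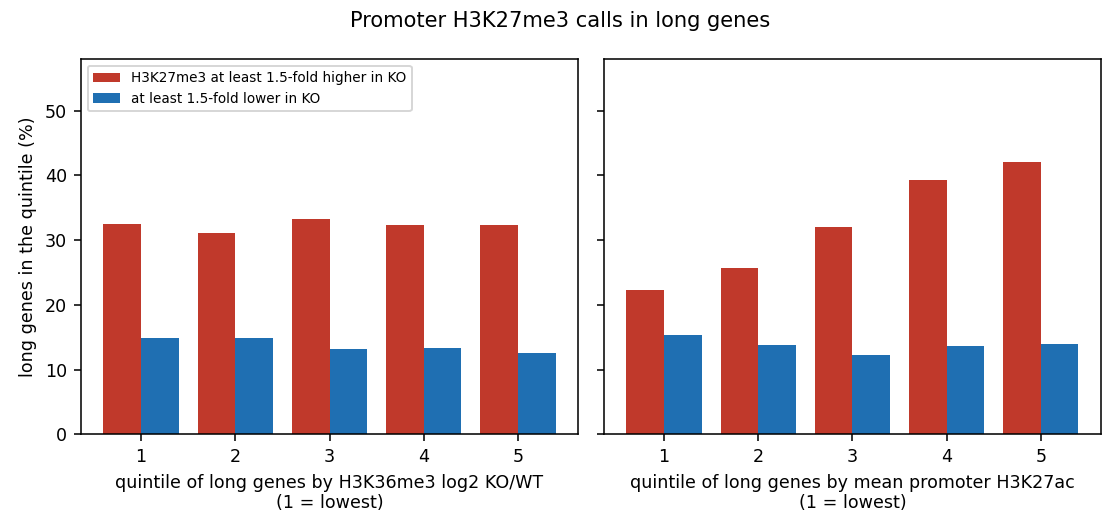
Percentage of long genes with promoter H3K27me3 at least 1.5-fold higher (red) or lower (blue) in KO, in quintiles of 618 or 619 genes ordered by the H3K36me3 ratio at left and by mean promoter H3K27ac at right. The red bars at left stay between 31.1 and 33.2%, while those at right go from 22.3 to 42.0%.

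The share with H3K27me3 gain varied with the acetylation level of the promoter, an active mark on the same lysine read in separate libraries. Quintiles were ordered by mean H3K27ac over all 4 H3K27ac libraries, the vitro pair included. From the lowest to the highest quintile, 22.3, 25.7, 32, 39.3 and 42.0% of long genes had higher H3K27me3. The share with lower H3K27me3 lay between 12.3 and 15.3% in each quintile. Under the 4 other scalings the lowest quintile held 14.2 to 15.0% and the highest 32.1 to 34.9%. With a pseudocount 5 times larger the graded rise was lost, with 12.0, 16.0, 19.1, 15.5 and 15.0% over the quintiles. The median H3K27me3 level over the same quintiles was 10.9, 16.4, 7.92, 4.01 and 3.46 per kb, so the most acetylated promoters carried the least of that mark. The part of this level in the rise was not tested.

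Within these quintiles the correlation of both marks' ratios was 0.0795, 0.0984, 0.0498, -0.0642 and -0.0464, from the least to the most acetylated promoters. In the fourth quintile 49.1% of the genes with lower H3K36me3 had higher H3K27me3, against 37.2% of the rest. In the top quintile the order was turned, with 33.7% against 43.3%. The opposed genes numbered 12, 23, 28, 54 and 29 from the lowest to the highest quintile. In the pair without the vitro label their median H3K27ac was 14.7 per kb, against 9.66 over all long genes measured. It was 12.9 for the opposite pattern, 12.6 where both marks were lower and 11.3 where both were higher. All genes with higher H3K27me3 had 12.2 and all with lower H3K36me3 had 11.4. A level above that of all long genes is thus not particular to the opposed genes.

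The level of H3K36me3 itself, known to follow transcription through the body, did not bring the relation out. In quintiles of mean H3K36me3 the correlation ranged from -0.00763 to 0.068, although lower H3K36me3 became more common, from 9.69% in the lowest quintile to 22.9% in the highest. That mean is taken from the same libraries as the ratio. In the 185 genes in the top quintile of both H3K36me3 and H3K27ac, the correlation was -0.0488, and H3K27me3 was higher in 23.3% of the genes with lower H3K36me3 against 39.4% of the rest.

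In quintiles of mean H3K27me3 the correlation lay between -0.0355 and 0.0885. In the lowest quintile, where promoters carried the least of the mark, 44.9% of genes with lower H3K36me3 had higher H3K27me3, against 37.1% of the rest. In the other 4 quintiles this share was within 5 percentage points of the rest in either direction.

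Promoters with few CG had higher H3K27me3 less often than the others. A RefSeq promoter within 3000 bases of the table's gene start was found for 2113 of the 3092 genes (68.3%), so this description leaves out the others. From the fewest to the most CG, 20.8, 36.7, 33.1, 33.4 and 42.8% had higher H3K27me3, and 18.9% of the lowest quintile had lower H3K27me3 against 11.3% of the highest. The correlation of CG count with the H3K27me3 ratio was 0.134 and with the H3K36me3 ratio -0.0678. The opposed genes numbered 8, 22, 26, 30 and 20 in these quintiles. Among genes with lower H3K36me3, higher H3K27me3 was found in 14.8, 39.3, 47.3, 41.1 and 32.8%, against 21.7, 36.3, 31.0, 31.8 and 44.5% of the rest, so the order of the 2 shares was not the same throughout. The median CG count was 25 in the opposed genes, 20 in those of the opposite pattern, 27 where both marks were lower, 23 where both were higher and 22 over all. The median H3K27ac level moved with the CG count, at 4.65, 9.52, 12.6, 15.3 and 13.7 per kb over these quintiles; its part in the result was not tested.

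The 2 marks had unequal agreement between the KO and WT libraries. Over all 4649 long genes the Spearman correlation of KO and WT levels was 0.816 for promoter H3K27me3, 0.807 for H3K27ac and 0.9 for vitro H3K27ac, but 0.383 for gene-body H3K36me3. For H3K36me3 it was 0.32 at spans of 50 to 100 kb, 0.416 at 100 to 200 kb and 0.598 at 200 kb or more, and 0.162 below 5 kb. In the 3092 genes measured in both marks, on which the ratios rest, it was 0.179 for H3K36me3 (0.0963, 0.223 and 0.395 in the same 3 span classes) and 0.782 for H3K27me3. Longer bodies were thus more alike between the libraries; the cause was not tested.

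The spread of the H3K36me3 ratio narrowed in step, with an SD of 0.665, 0.502 and 0.317 in the 3 span classes of long genes, against 1.65 under 50 kb. Lower H3K36me3 was found in 20.9, 10.9 and 3.39% of the 3 classes. The correlation of both marks' ratios was 0.0101 (1511 genes), 0.0045 (961 genes) and 0.0378 (620 genes), and 0.0142 in 7466 genes under 50 kb. In the class with the steadiest H3K36me3 values, 6 of 21 genes with lower H3K36me3 had higher H3K27me3 (28.6%), against 31.7% of the rest.

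**Figure D4:**
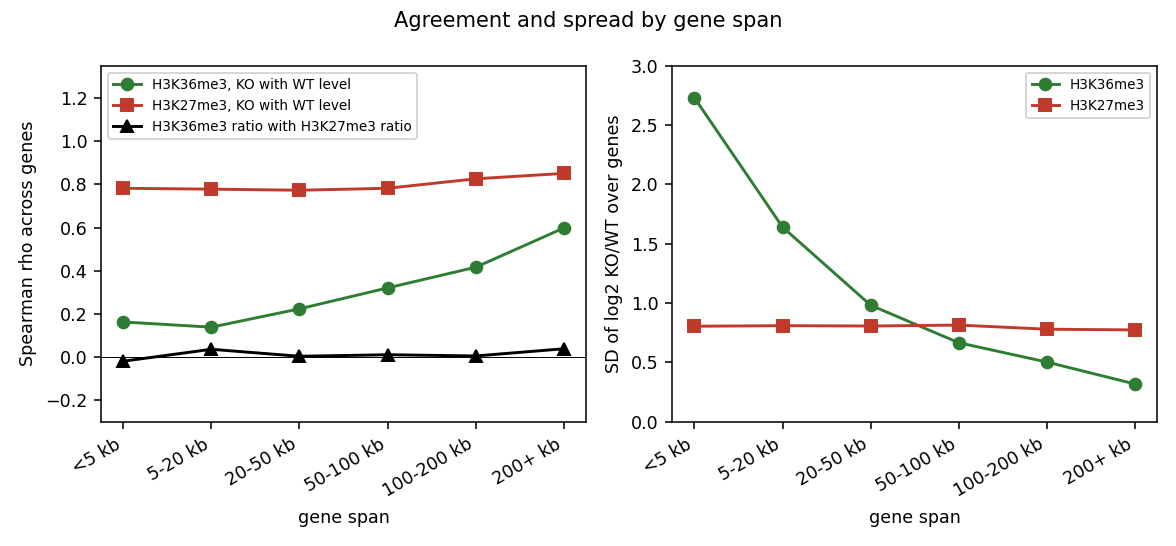
At left, Spearman correlation across genes by span class, for KO with WT levels of H3K36me3 (green) and H3K27me3 (red) over all genes of the class, and for the log2 ratios of both marks (black); at right, the SD of each mark's log2 KO/WT ratio over the genes measured in both marks. Agreement of H3K36me3 goes from 0.162 below 5 kb to 0.598 at 200 kb or more, while the black line stays near 0.

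H3K36me3 levels also had only a loose relation to promoter acetylation in long genes, with a correlation of 0.211 with vitro H3K27ac in WT and 0.142 in KO over the 4649 genes. With H3K27ac without the vitro label it was 0.239 in WT and 0.173 in KO.

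The 100 measured genes just inside the span limit (50.01 to 52.0 kb) had a median H3K36me3 ratio of -0.24 and a median H3K27me3 ratio of 0.33; the 100 just outside (48.21 to 49.99 kb) had -0.22 and 0.18. The correlations were 0.155 and -0.0224.

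The 4 longest measured genes carried low, similar body signal in both genotypes with 1 exception. Lsamp (2200 kb), encoding a neuronal adhesion protein, had H3K36me3 of 2.95 per kb in KO and 2.42 in WT and H3K27me3 of 4.67 and 11.7. Macrod2 (2000 kb), encoding an ADP-ribosyl hydrolase, had H3K36me3 of 2.83 and 2.81 and H3K27me3 of 28.4 and 14.5. Dlg2 (1970 kb), encoding a synaptic scaffold, had 2.74 and 2.56 in H3K36me3 and 9.02 and 5.59 in H3K27me3.

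The exception, Fgfr2, a receptor tyrosine kinase gene, has a span of 2960 kb in the table but 104 kb in RefSeq. It had H3K36me3 of 2.46 and 6.49 and H3K27me3 of 6.27 and 20.1. RefSeq loci were under 50 kb for 109 of the 3092 genes, Acss2 (44.7 kb) and Rasgef1b (35.5 kb) among the named ones. With spans taken from RefSeq, 3377 genes were measured and the correlation was 0.00143.

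Genes grouped by function gave counts that can be read beside those of all long genes. The lists were chosen with earlier results of these data known, so a list that stands out is a description and not independent support. Opposed genes made up 4.72% of the long genes measured, and genes of the opposite pattern 1.49%. With 6 to 33 genes measured per list, 0 or 1 opposed member is too few to tell a list from the rest. With a pseudocount 5 times larger, 1 of the Polycomb genes was the only member of any group with lower H3K36me3 and none had higher. Of the genes of epithelial junctions, polarity and identity 20 were long and 16 measured; of these, 10 had higher H3K27me3 and none lower (32.3% and 13.8% over all long genes), with a median log2 ratio of 0.77 against 0.23 over all long genes. Under the 6 other settings of pseudocount and scaling 7 to 11 were higher and none lower. H3K36me3 was lower in 3 and higher in none, at a median of -0.18 against -0.06.

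Of these, 2 combined both differences, Cdh1 among them. Cdh1, encoding E-cadherin, the adhesion molecule of epithelial junctions, had H3K36me3 of 2.67 per kb in KO and 8.4 in WT, H3K27me3 of 38.5 and 20.4, and vitro H3K27ac of 5.72 and 24.0. Vitro acetylation was thus lower in KO at Cdh1, while in the other pair it was 23.3 and 18.7.

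Tjp1, encoding ZO-1, had H3K27me3 of 8.25 per kb in KO and 0.328 in WT, a WT value below the floor, with H3K36me3 of 2.62 and 4.55. Its H3K36me3 was within 1.5-fold.

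The 14 mesenchymal and matrix genes measured, of 24 long ones, had higher H3K27me3 in 2 and lower in 3. H3K36me3 was lower in 2 and higher in 2. None was opposed, against 4.72% of all long genes measured. Zeb2, encoding a repressor of E-cadherin, had promoter H3K27me3 of 8.85 per kb in KO and 24.7 in WT, with H3K36me3 of 3.56 and 2.82. Lamc1, a laminin chain gene, had H3K27me3 of 7.92 and 1.31 and H3K36me3 of 4.18 and 2.36, with each WT value below the floor of its mark. Col6a3, a collagen VI gene, had H3K27me3 of 5.39 and 9.92. At all 3, H3K27ac was higher in KO in both pairs. Promoter H3K27ac of 6 fibroblast markers, of which 0 to 3 lay above the median of their library, summed to 91.7 per kb in KO and 46.6 in WT, and to 55 and 18.6 in the vitro pair; its part in these values was not tested.

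Among 6 measured of 12 long writers, erasers and readers of H3K36 methylation, H3K36me3 stayed within 1.5-fold in all, and H3K27me3 was higher in 2 and lower in 2. Kdm2a and Kdm2b, both demethylases of H3K36, had lower H3K27me3, with 1.92 per kb in KO and 7.34 in WT for the former and 1.87 and 5.59 for the latter. Dnmt3a, a DNA methyltransferase gene whose product binds methylated H3K36, had H3K27me3 of 11.8 and 5.1, and Zmynd11, encoding an H3K36me3 reader, had 10.4 and 4.82. Setd2 itself had body H3K36me3 of 2.32 and 2.38, under the floor, and promoter H3K27me3 of 6.05 and 2.41; a signal over the whole locus cannot check the deletion.

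Of 8 Polycomb and H3K27 enzyme genes measured, of 15 long ones, Cbx7 was the only opposed member. Aebp2, encoding a PRC2 cofactor, showed the opposite pattern, with H3K36me3 of 6.34 per kb in KO and 2.12 in WT and H3K27me3 of 2.09 and 6.36. Pcgf5, encoding a PRC1 subunit, had H3K36me3 of 2.88 and 8.21 and H3K27me3 of 7.04 and 5.1. Hdac4, a histone deacetylase gene, had H3K27me3 of 3.96 and 0.877, a WT value below the floor. No common direction was seen in this list.

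Receptor kinase, PI3K, RAS and TGF-beta signalling genes (25 measured of 39 long) had H3K27me3 higher in 10 and lower in 3. H3K36me3 was lower in 4 and higher in 6. No member was opposed, against 4.72% of all long genes measured. Rasa2, Tgfbr2 and Smad2, named after their values were seen, had both marks higher, with log2 ratios of 0.59 to 0.79 in H3K36me3 and 0.88 to 1.13 in H3K27me3. Rasa2 and Smad2 each had a WT H3K27me3 of 0.877 per kb, below the floor. Tgfbr2, encoding a TGF-beta receptor, had H3K36me3 of 7.70 per kb in KO and 4.13 in WT and H3K27me3 of 4.62 and 1.81. Ephb2 had higher H3K36me3 with lower H3K27me3. Rassf5 and Plcb4 were in this list with their ratios already known and support no direction of it.

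Axon guidance genes differed from the epithelial ones in count: none of 22 measured (28 long) had higher H3K27me3 and 4 had lower, under the 6 other settings none and 4 to 6. Their median log2 ratio was 0.13 but below 0 under all 4 other scalings, so no direction of the list as a whole is given. Sema3a, encoding a secreted semaphorin, had H3K27me3 of 2.03 per kb in KO and 12.7 in WT and vitro H3K27ac of 85.6 and 22.5, beside H3K36me3 of 4.26 and 7.56. Ephb2, an ephrin receptor gene, had the opposite pattern with H3K36me3 of 8.9 and 3.72 and H3K27me3 of 31.7 and 54.9. Sema3e and Ntn4 had lower H3K36me3, at 3.64 against 7.79 and at 2.57 against 6.98, with H3K27me3 within 1.5-fold.

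The 25 synaptic genes measured, of 39 long ones, are silent in most epithelial cells and showed H3K36me3 lower in none and higher in 1, and H3K27me3 higher in 6 and lower in 4. The balance turned to 3 and 6 with centring, 5 and 6 with quantile normalization and 2 and 6 with chromosomes centred, and was 5 and 5 with the level trend removed. Csmd1 had H3K27me3 of 46.2 per kb in KO and 11.7 in WT on an H3K36me3 of 3.28 and 3.67. Cntn4, encoding an axonal adhesion protein, had lower H3K27me3, at 6.87 against 14.6. At Csmd1 and Cntn4 H3K27me3 thus differed while body H3K36me3 lay below the long genes' medians of 4.34 in KO and 4.54 in WT. Most of the list had H3K27me3 within 1.5-fold. Not every body was low, as Nrxn2 had H3K36me3 of 6.06 in KO and 5.80 in WT.

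Large genes of constitutive functions are transcribed in most cells, and 33 of 63 long ones were measured. H3K36me3 was lower in 6 and higher in none, and H3K27me3 was higher in 11 and lower in 3; only Chd9 was opposed. Chd9, a chromatin remodeller gene, had H3K36me3 of 2.57 per kb in KO and 6.35 in WT and H3K27me3 of 8.13 and 1.75. With ratios centred on their median the H3K36me3 counts became 3 and 1, and with each chromosome centred 2 and 1.

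The widest H3K27me3 ratios of that list came with H3K36me3 within 1.5-fold, as in most long genes. Lrba had 11.9 per kb in KO and 0.11 in WT, Tanc2 had 30.8 and 3.18, and Kmt2a, encoding an H3K4 methyltransferase, had 12.7 and 1.65. Their H3K36me3 log2 ratios were -0.12, 0.46 and -0.06. The body of Tanc2 still had 4.37 per kb in KO and 2.44 in WT, the latter below the floor. The WT value of Lrba lay far below the floor.

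Of 11 sterol and lipid genes measured (16 long), none had lower H3K36me3 and 2, Pnpla7 and Mboat1, showed the opposite pattern. Pnpla7, encoding a lysophospholipase, had H3K36me3 of 8.36 per kb in KO and 3.03 in WT and H3K27me3 of 1.87 and 4.28. Acacb, encoding an acetyl-CoA carboxylase, had H3K27me3 of 2.2 and 13.6 with a body level of 4.63 and 4.96. Osbpl3, an oxysterol-binding protein gene, had H3K27me3 of 4.29 and 1.1 although its H3K27ac was 67.9 and 17.9. The WT H3K27me3 of Osbpl3 lay below the floor.

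Genes of other cell types gave no opposed member, but only 4.72% of all long genes measured were opposed and these lists are short. Of 10 leukocyte genes measured (15 long), 1 (Ikzf1) had higher and 1 (Adgre1) lower H3K27me3; of 8 endothelial genes measured (9 long), 2 (Shank3 and Mmrn1) had higher. In promoter H3K27ac, 9 to 11 of 11 epithelial markers lay above their library's median in the 4 libraries, against 0 to 2 of 7 leukocyte, 0 to 2 of 5 endothelial, 0 to 3 of 6 fibroblast and 2 to 5 of 6 acinar markers. The H3K36me3 and H3K27me3 libraries cannot be checked this way.

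Vitro H3K27ac, read in libraries that entered neither ratio, was lower in 17.8% and higher in 7.53% of the 146 opposed genes. In the 46 genes of the opposite pattern it was lower in 4.35% and higher in 28.3%. Over all 3092 genes the shares were 12.7% and 12.8%, and over all genes of the table measured in that pair 13.7% and 10.9%. By H3K27me3 class alone the contrast ran the same way, with 13.4% lower and 9.42% higher where H3K27me3 was higher, and 10.1% and 19.2% where it was lower.

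The H3K27ac pair without the vitro label did not share that contrast. There, 12.3% of the opposed genes were lower and 33.6% higher, and 13.0 and 37.0% of the opposite ones, against 15.2 and 28.8% over all long genes and 11.5% and 33.3% of all genes measured in that pair. The correlation of the H3K27me3 ratio with the vitro H3K27ac ratio was -0.0581 and with the other pair 0.0244. Opposed genes were also shorter than the long genes at large, with a median span of 73.8 kb against 102 kb, as were both-lower (72.7 kb), both-higher (75 kb) and opposite ones (84.2 kb).

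Long genes differed by chromosome in both marks. The median H3K36me3 log2 ratio ran from -0.21 on the X chromosome and -0.20 on chromosome 18 to 0.12 on chromosome 1, and the share with lower H3K36me3 ran from 9.58% on chromosome 1 to 25% on X, with 24.3% on chromosome 5. The median H3K27me3 ratio ran from -0.03 on chromosome 5 to 0.39 on chromosome 1. Chromosome 1 thus had the highest median of both marks.

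Over 20 chromosomes the medians of H3K36me3 and H3K27me3 had a Pearson correlation of 0.5, and those of H3K36me3 and H3K27ac 0.701 (0.647 with the vitro pair). The chromosome medians of the 4 pairs thus moved in part together. Within chromosomes the correlation of both marks ran from -0.176 on chromosome 14 to 0.398 on X (56 genes) and was below 0 on 10 of 20. With each chromosome centred on its median it was -0.00102 over all long genes, and over the autosomes alone, without centring, 0.00461.

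**Figure D5:**
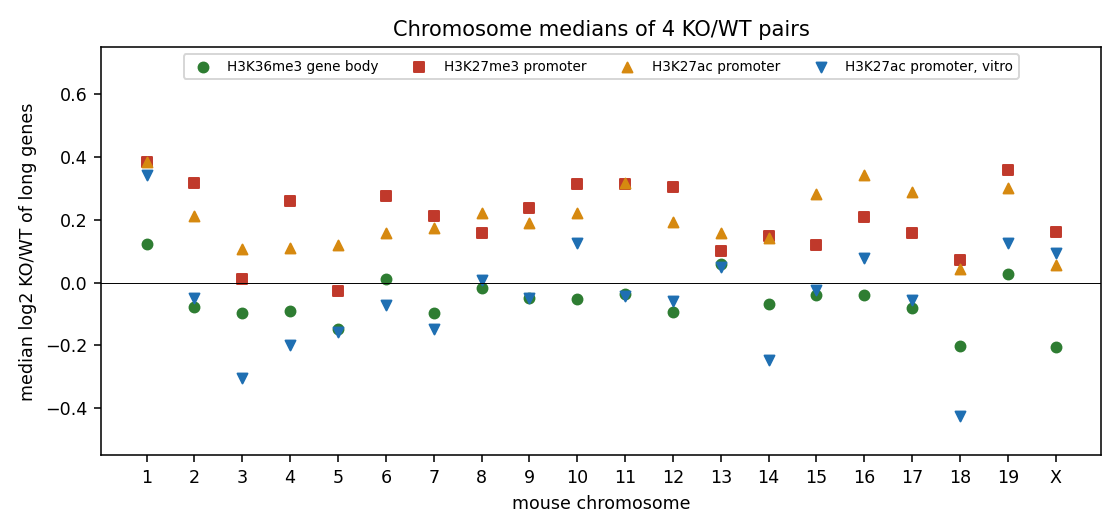
Median log2 KO/WT ratio of the long genes on each mouse chromosome for gene-body H3K36me3 (green circles), promoter H3K27me3 (red squares), H3K27ac (orange triangles) and vitro H3K27ac (blue inverted triangles). All 4 pairs have their highest median on chromosome 1 (0.12 for H3K36me3, 0.39 for H3K27me3).

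Neighbouring genes limit what single cases show. Of the 3092 bodies, 722 (23.4%) overlapped another gene of the table, and 83 starts lay within 6000 bases of the start of another long gene measured, where promoter windows could overlap, depending on their unstated width. In the 2370 genes overlapping no other the correlation was 0.00976.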

How the data were processed

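One table of 25450 genes was used, with 8 columns of signal over promoters or gene bodies that the authors had deposited; the values look like mean coverage per base, but scale and promoter window were not stated in the sources used here. Bowtie2 2.4.2, HOMER, MACS2 2.2.7.1 and build mm10 are listed per the submitters' processing notes; order, settings, scaling and filters were not given in the sources used here. Multiplied by the RefSeq span, 45.8% of KO and 45.6% of WT gene-body values were whole hundredths (within 0.02 of a hundredth), against 20% and 19.8% with the table's span, so the body is probably the RefSeq locus. Gene symbols were matched to RefSeq (4634 long genes current, 15 older, none unmatched).

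Ratios, floors and the 1.5-fold threshold are those given in the report; correlations describe genes and carry no p. Named genes followed a rule: above the median of both marks' mean signal and above 0 in all 4 libraries, the 10 most opposed, 5 of each other combination, the 5 lowest H3K36me3 and 5 highest H3K27me3 ratios, the 4 longest, Setd2 and up to 4 members of each list by size of ratio, the list members without the signal rule. The genes, lists and thresholds were chosen with earlier results of these data known. Python 3.11.15, pandas 2.3.3, numpy 2.4.6 and scipy 1.17.1 were used, and the code was tested on simulated data. Depth is unknown, so no counting interval is given. Alternatives were the pseudocount, filter, scaling, span limit, threshold, gene class and overlap; restriction to autosomes, RefSeq spans (2 ways) and values above 0 in all 4 libraries were chosen after seeing the data. Values of some genes named by the rule are not reported here.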

Additional observations from a re-analysis of the deposited data

How the results depend on the processing

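The correlation of the 2 ratios stayed between -0.0129 and 0.0188 under all 17 alternatives. The share with higher H3K27me3 among genes with lower H3K36me3 exceeded that of the rest by 0.881 percentage points; 16 alternatives gave -0.559 to 2.43, and a pseudocount 5 times larger gave -4.96, from 47 genes with lower H3K36me3. The medians of H3K36me3 lay between -0.0852 and 0.0163. The median of H3K27me3 was 0.134 with the larger pseudocount, 0.0595 with centring, 0.0486 with quantile normalization, 0.0475 with the level trend removed and 0.0 with chromosomes centred.

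Counts moved with the pseudocount, the centring, the genes kept and the threshold. With the larger pseudocount, H3K36me3 was lower in 47 and higher in 16, H3K27me3 higher in 480 and lower in 129, and 5 genes were opposed. With a pseudocount 5 times smaller, 675 were lower and 522 higher in H3K36me3, and 247 were opposed. With no filter on low values 4649 genes entered, 504 of them higher in H3K36me3. With the floor at the median of positive values 975 genes entered, with 130 lower and 70 higher in H3K36me3, 257 higher and 92 lower in H3K27me3, and 37 opposed. At 2-fold these counts were 138 and 99, 536 and 161, and 24. From 20 kb, 6020 genes gave 1361 and 995, 1959 and 858, and 437; from 100 kb, 1581 genes gave 126 and 106, 503 and 215, and 40. Centring on the overall or the chromosome median left 95 opposed genes each. The other alternatives kept each count within 1.5 times its main value. No paired analysis was possible because the labels give no replicate numbers and each group has 1 library. Without replicates or fragment counts, neither biological spread nor counting error can be set against any difference.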
